A study of Arabidopsis thaliana with 48 samples.

Results

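The Casparian strip genes are 10 Arabidopsis genes whose products build the lignin band of the root endodermis. They were picked by locus code from the 33715 entries of a table of read counts, and each code matched 1 entry. The 9 members reported here are CASP1 (AT2G36100), CASP2 (AT3G11550), CASP4 (AT5G06200), CASP5 (AT5G15290), MYB36 (AT5G57620), ESB1 (AT2G28670), PER64 (AT5G42180), SGN3 (AT4G20140, named GSO1 in RefSeq) and RBOHF (AT1G64060). Of these, 8 passed a filter on low counts and entered the tests, and ESB1 did not. In the TAIR10 positions of the deposited table, chromosome 2 holds CASP1 (15159591 to 15160750, minus strand) and chromosome 3 holds CASP2 (3638195 to 3639197). Chromosome 5 holds CASP4 (1877333 to 1878116), CASP5 (4967011 to 4968035), PER64 (16852630 to 16854224) and MYB36 (23334817 to 23336566). SGN3 lies on chromosome 4 (10884197 to 10888270) and RBOHF on chromosome 1 (23769774 to 23776931).

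The series measured polysome-bound mRNA in roots of 6-day-old seedlings given brassinolide (BL, a brassinosteroid hormone of high activity) at 100 nM for 0, 3 or 8 h. Ribosomes carrying a FLAG tag were purified with the mRNA bound to them, and the promoter that drove the tag set the cells that were read. In the complemented lines the plants carried bri1-116, a mutant allele of the brassinosteroid receptor BRI1, and regained BRI1 from a transgene in 1 tissue: pSCR(pSCRBRI1), pGL2(pSCRBRI1) and pGL2(pGL2BRI1). Each of these names gives the promoter of the tag and then, in parentheses, the BRI1 transgene. In plain Col-0 plants the tag was driven by pSCR (endodermis), pBRN2 (root cap), pGL2 (non-hair epidermis), pSHR (stele) or 35S (whole root). Each of these 8 lines had 2 libraries at each time, which gave 48 libraries in 24 groups, and all 8 lines received BL. A promoter can be active outside the cells it is named for, so a line stands for the cells in which its tag was made.

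The Casparian strip is a ring of lignified wall between neighbouring endodermal cells that seals the space outside the cells, so that water and ions reach the stele only through a plasma membrane. In Arabidopsis the CASP proteins form a membrane scaffold at the site of the strip, to which the peroxidase PER64 and the dirigent-domain protein ESB1 are brought. RBOHF, an NADPH oxidase, makes the reactive oxygen that the peroxidase uses to polymerise lignin. The receptor kinase SGN3 senses peptides from the stele and controls whether the strip is continuous. MYB36 is the transcription factor that switches on the CASP genes, PER64 and ESB1. Brassinosteroids act through BRI1, whose signal activates transcription factors that bind the brassinosteroid response element.

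The 4 CASP genes reported here encode closely related proteins and are read below as a family, so their promoters are shown side by side. Each line holds the 250 bases before the start of the gene, 5′ to 3′ on the gene's strand, from the RefSeq annotation of TAIR10.1. They lie at chr2:15160800-15161049 (minus strand) for CASP1, chr3:3637928-3638177 (plus) for CASP2, chr5:1876884-1877133 (plus) for CASP4 and chr5:4966761-4967010 (plus) for CASP5. Capitals mark matches, on either strand, to ACCNAAC (the AC-element of lignin genes) and TAACNG (a core bound by MYB factors).
CASP1: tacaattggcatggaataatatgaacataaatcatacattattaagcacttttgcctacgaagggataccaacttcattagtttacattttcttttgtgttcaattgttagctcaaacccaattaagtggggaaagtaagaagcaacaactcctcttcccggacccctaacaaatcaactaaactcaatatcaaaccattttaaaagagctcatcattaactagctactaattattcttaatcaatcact
CASP2: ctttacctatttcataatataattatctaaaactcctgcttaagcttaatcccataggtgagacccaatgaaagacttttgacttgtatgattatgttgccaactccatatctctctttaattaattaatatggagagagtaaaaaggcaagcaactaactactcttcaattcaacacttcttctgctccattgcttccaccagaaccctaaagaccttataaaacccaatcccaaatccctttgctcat
CASP4: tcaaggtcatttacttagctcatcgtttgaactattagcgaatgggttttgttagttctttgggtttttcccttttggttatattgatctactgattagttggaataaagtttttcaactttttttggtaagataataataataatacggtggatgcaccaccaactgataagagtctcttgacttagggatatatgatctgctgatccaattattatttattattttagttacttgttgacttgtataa
CASP5: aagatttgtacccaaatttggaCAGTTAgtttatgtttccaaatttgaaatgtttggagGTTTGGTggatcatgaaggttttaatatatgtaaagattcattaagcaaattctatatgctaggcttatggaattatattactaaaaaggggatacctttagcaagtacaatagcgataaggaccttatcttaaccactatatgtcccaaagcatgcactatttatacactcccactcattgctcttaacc
CASP5 held 1 match to ACCNAAC, starting 191 bases before the gene, and 1 match to TAACNG, starting 228 bases before it. CASP1, CASP2 and CASP4 held none of the 4 motifs searched. Over the 9 members, ACCNAAC was found in 2 promoters (CASP5 and ESB1), against 14.5% of 27443 promoters of the same length, and TAACNG in 4 (the same 2, MYB36 and RBOHF), against 26.6%. The brassinosteroid response element CGTGNG was found in SGN3 alone, against 12.5% of promoters, and the G-box CACGTG, which CGTGNG can overlap, in no member, against 6.49%. A match is a description of these letters and does not show that a factor binds there.

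Levels are in CPM, read counts scaled to a common library size, with sizes adjusted by TMM, a method that aligns libraries on the bulk of their genes. Means are given ± SD (n = 2), and log2 changes ± SE. A gene is said to be higher, lower, risen or fallen in a comparison only where it passed the quasi-likelihood test of edgeR at a Benjamini-Hochberg adjusted p under 0.05 over the 20995 genes tested. The p-values measure effects against the differences within pairs of libraries, which the series design calls biological repetitions. Library totals ran from 20556381 to 37685541 counts. Marker sums followed the labels at 0 h for the Col-0 lines: the 5 root cap markers summed to 3659 and 3153 CPM in pBRN2, against 392 and 380.5 in 35S. The 10 stele markers summed to 1837 and 1718 CPM in pSHR, against 451 and 449 in 35S, and the 6 endodermis markers to 2226 and 1513 CPM in pSCR, against 221.5 and 214 in 35S. The 6 non-hair epidermis markers summed to 238 and 163 CPM in pGL2, against 50.7 and 52.4 in 35S. Libraries labelled pGL2(pSCRBRI1) went against their label: the epidermis markers summed to 5.62 and 6.33 CPM and the endodermis markers to 1981 and 1725 CPM at 0 h. They are called the libraries labelled pGL2(pSCRBRI1) and are set against pSCR. At each time 1 of the 2 pGL2(pGL2BRI1) libraries also stood apart, with endodermis markers at 381, 160 and 332 CPM at 0, 3 and 8 h, against 29.4, 30.2 and 33.6 in its partner. Since all 48 libraries share the estimate of spread, counts of calls at the adjusted threshold are also given without these 3 libraries where they change. This choice was made after seeing the data.

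In pSCR at 0 h, CASP1 stood at 2806 and 3314 CPM, against 482 and 369 CPM in 35S. CASP2 stood at 1073 and 1546 CPM in pSCR, against 185 and 152 in 35S. The pSCR libraries were above the 35S libraries with no overlap for both of these scaffold genes. CASP4 stood at 595 and 644 CPM in pSCR, against 92.55 and 78.7 in 35S. CASP5 stood at 396 and 594 CPM in pSCR, against 57.7 and 57.5 in 35S. Its pSCR libraries differed from each other more than its 35S libraries did, and again did not overlap with them. Scaled to exon length, the order in pSCR was CASP1 at 3385 CPM per kb, CASP2 at 1316, PER64 at 677, CASP4 at 610, CASP5 at 554, MYB36 at 79.6, SGN3 at 22.4 and RBOHF at 10.9. CASP1 mRNA on ribosomes was thus the most abundant per length of the 8 tested members, and the regulator, the receptor and the oxidase were the least.

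PER64, the peroxidase of the strip, stood at 1028 and 639 CPM in pSCR, against 122 and 120.2 in 35S. MYB36, the transcription factor, stood at 101 and 119 CPM in pSCR, against 16.7 and 15.97 in 35S. SGN3, the receptor kinase, stood at 116 and 75.55 CPM in pSCR, against 13.5 and 13.75 in 35S. These were also without overlap between the lines. RBOHF stood at 45.6 and 41.0 CPM in pSCR, against 16.5 and 18.1 in 35S, a smaller gap than that of any other tested member.

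All 8 tested members were higher in pSCR than in 35S at 0 h, where 12.4% of all genes tested were higher. The 7 members other than RBOHF were 6.74 to 8.59 times as high, with log2 changes of 2.75 to 3.10. CASP5 had the largest change, 3.10 ± 0.85 (adjusted p = 0.00496), and MYB36 the smallest of the 7, 2.75 ± 0.94 (adjusted p = 0.0240). RBOHF changed by 1.32 ± 0.26 (adjusted p = 0.000119). The 6 endodermis markers, none of them a member, moved with these genes and summed to 1870 ± 505 CPM in pSCR and 218 ± 5.0 CPM in 35S. In these bulk samples, fewer endodermal cells and less mRNA per cell in a line cannot be told apart. Without 35S replicate 1, 4 members passed (CASP2, CASP5, SGN3 and RBOHF), and without 35S replicate 2, 3 passed (CASP5, SGN3 and RBOHF). Without pSCR replicate 1, 6 passed (not MYB36 or PER64), and without pSCR replicate 2, 7 passed (not MYB36). Without the 3 libraries that stood apart, all 8 passed.

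**Figure D1:**
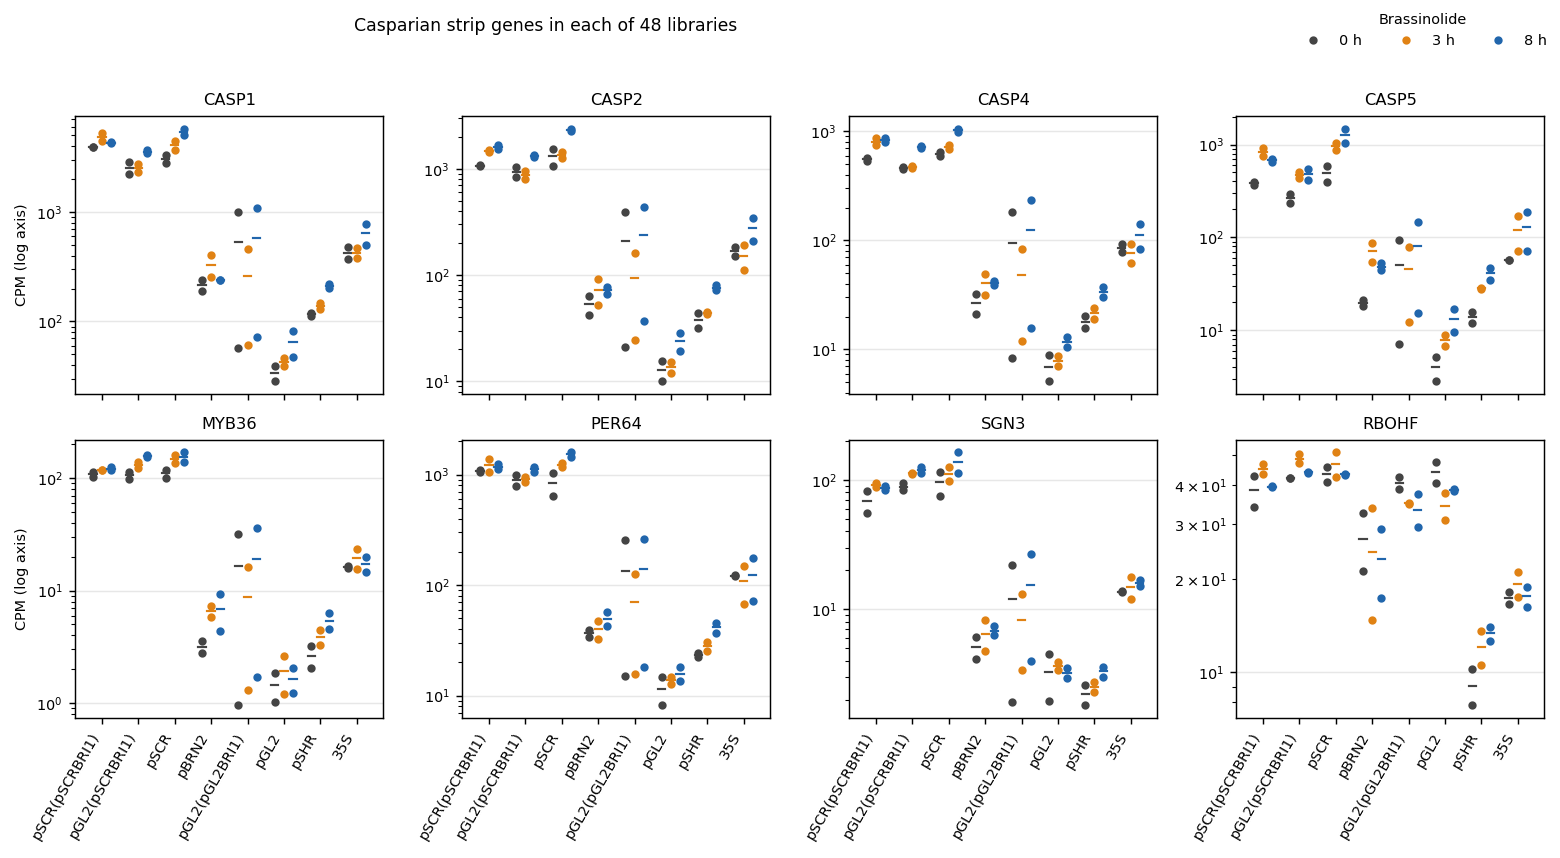
Level of each of the 8 tested members in every library, in CPM on a log axis, by line from left to right and by hours of BL in colour, with 2 points per group. The endodermal libraries, including those labelled pGL2(pSCRBRI1), hold the highest levels of each member other than RBOHF. For RBOHF they lie close to the epidermal lines, whose 0 h libraries of pGL2 reach 40.7 and 47.3 CPM.

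In the epidermal line the 7 members other than RBOHF were near their lowest. CASP1 stood at 28.4 and 39.1 CPM in pGL2 at 0 h, against 482 and 369 CPM in 35S, and MYB36 at 1.03 and 1.84 CPM, against 16.7 and 15.97 in 35S. All 7 were lower in pGL2 than in 35S, where 25.9% of all genes were lower, with log2 changes from -3.85 ± 0.90 for CASP5 (adjusted p = 0.000894) to -2.08 ± 0.71 for SGN3 (adjusted p = 0.0168). RBOHF went the other way: it stood at 40.7 and 47.3 CPM in pGL2, against 16.5 and 18.1 CPM in 35S, and was higher by 1.35 ± 0.26 (adjusted p = 7.45e-05), where 23.0% of all genes were higher. The pGL2 and 35S libraries did not overlap for any of the 8 members. Without pGL2 replicate 1, MYB36, PER64 and SGN3 no longer passed, and SGN3 did not pass without either 35S library. In pGL2 the endodermis markers summed to 44.3 ± 14.7 CPM, against 218 ± 5.0 in 35S.

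The direct comparison of endodermis and epidermis gave wider gaps than those of pSCR with 35S or pSHR for the CASP genes, MYB36 and PER64. The 7 members were 29.6 to 124 times as high in pSCR as in pGL2 and all passed, where 21.2% of all genes were higher. CASP5, at 495 ± 140 CPM in pSCR and 4.01 ± 1.7 CPM in pGL2, had the largest log2 change, 6.95 ± 1.02 (adjusted p = 2.41e-06). SGN3, at 95.7 ± 28.5 CPM in pSCR and 3.26 ± 1.8 CPM in pGL2, had the smallest, 4.89 ± 0.77 (adjusted p = 6.87e-06). RBOHF stood at 43.3 ± 3.2 CPM in pSCR and 44.0 ± 4.7 CPM in pGL2, a log2 change of -0.02 ± 0.25 (adjusted p = 0.956) that did not pass. Its libraries overlapped between these lines.

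In the stele line, CASP1 stood at 113 and 119 CPM in pSHR, against 482 and 369 CPM in 35S. PER64 stood at 24.2 and 22.2 CPM in pSHR, against 122 and 120.2 in 35S, and SGN3 at 2.60 and 1.82 CPM in pSHR, against 13.5 and 13.75 in 35S. RBOHF stood at 7.84 and 10.2 CPM in pSHR, against 16.5 and 18.1 in 35S. The pSHR libraries were below the 35S libraries for every tested member. Of the 8, MYB36, PER64, SGN3 and RBOHF were lower, where 18.9% of all genes were lower, with RBOHF at -0.94 ± 0.26 (adjusted p = 0.00567) and the other 3 at -2.39 to -2.63. Only SGN3 and RBOHF passed without 35S replicate 1, only SGN3 without 35S replicate 2 or pSHR replicate 1, and only RBOHF without pSHR replicate 2. Without the 3 libraries that stood apart, all 8 were lower, where 27.8% of all genes changed, and the SE of the 7 members other than RBOHF was 0.260 to 0.387, against 0.72 to 0.98 with all libraries. All 8 were higher in pSCR than in pSHR, where 19.9% of all genes were higher, and the 7 were 26.4 to 43.2 times as high. RBOHF changed least there too, by 2.26 ± 0.26 (adjusted p = 2.99e-08).

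In the root cap line, CASP1 stood at 191 and 237 CPM in pBRN2, against 482 and 369 CPM in 35S. The 7 members other than RBOHF had log2 changes of -0.99 to -2.37 and none passed with all libraries (adjusted p = 0.0534 to 0.350). Without the 3 libraries that stood apart, all 7 were lower, with adjusted p from 2.46e-06 to 0.00247, where 42.0% of all genes changed. RBOHF stood at 21.1 and 32.5 CPM in pBRN2, against 16.5 and 18.1 in 35S. It was the only member to pass with all libraries, at 0.63 ± 0.25 (adjusted p = 0.0465), where 18.1% of all genes were higher, and it missed the threshold without the 3 (adjusted p = 0.0540), without either 35S library and without pBRN2 replicate 2. Which members pass in pBRN2 thus depended on those 3 libraries.

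**Figure D2:**
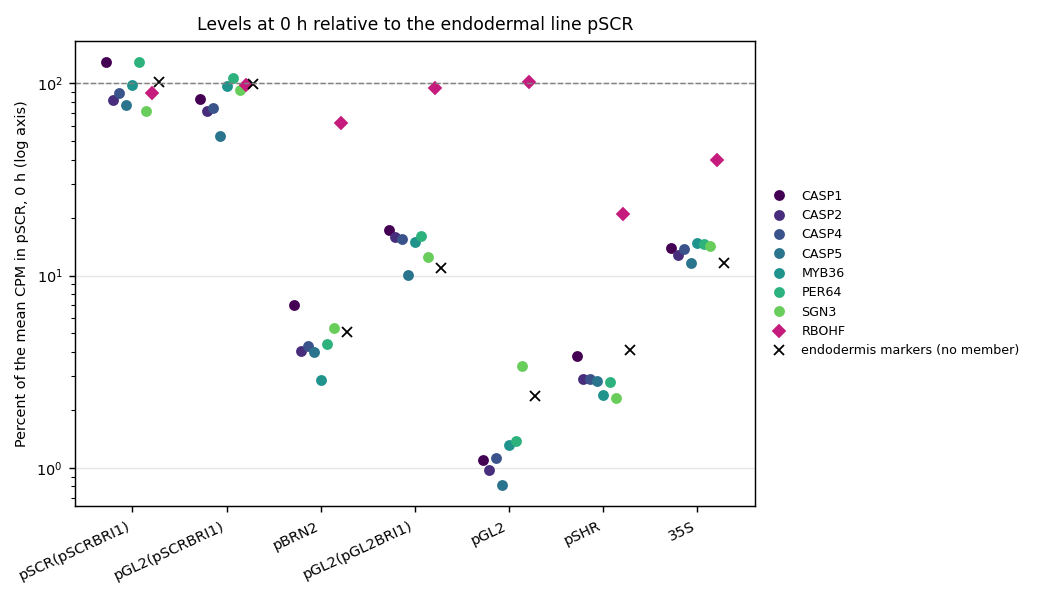
Mean level of each tested member at 0 h in 7 lines as a percent of its mean CPM in pSCR, on a log axis, with the dashed line at 100% and the summed endodermis markers as crosses. In pGL2 the 7 members other than RBOHF lie between 0.811% and 3.40% while RBOHF lies at 102%.

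Placed on a common scale, 6 of the 7 members other than RBOHF had the endodermis markers' order of 35S, pBRN2, pSHR and pGL2, and SGN3 stood lower in pSHR, at 2.31%, than in pGL2, at 3.40%. As a percent of their pSCR level at 0 h the 7 spanned 2.87 to 6.99 in pBRN2, 0.811 to 3.40 in pGL2, 2.31 to 3.79 in pSHR and 11.6 to 14.8 in 35S. The summed endodermis markers stood at 5.06, 2.37, 4.12 and 11.7 percent in the same 4 lines. RBOHF stood at 61.9, 102, 20.9 and 40.0 percent. Whether marker and member levels share a source in the non-endodermal lines was not tested.

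At 0 h the order of the lines was nearly the same for the 4 CASP genes. The 3 endodermal profiles came on top, pGL2(pGL2BRI1) and 35S next with overlapping libraries, then pBRN2, pSHR and pGL2. For CASP1 the pSCR(pSCRBRI1) libraries, at 3919 and 3930 CPM, lay above pSCR, while pSCR overlapped the libraries labelled pGL2(pSCRBRI1), at 2852 and 2216 CPM. For CASP2 pSCR overlapped pSCR(pSCRBRI1), and pBRN2 overlapped pSHR. For CASP4 only pGL2(pGL2BRI1) and 35S overlapped among neighbours. For CASP5 the libraries of 35S, pGL2(pGL2BRI1) and pBRN2 overlapped in turn. MYB36 overlapped among the 3 endodermal profiles, at 102 and 114 CPM in pSCR(pSCRBRI1), 114 and 97.8 CPM in the libraries labelled pGL2(pSCRBRI1), and 101 and 119 CPM in pSCR. SGN3 overlapped between neighbours from 35S down to pSHR. RBOHF had another order: its 5 highest lines, pGL2, pSCR, the libraries labelled pGL2(pSCRBRI1), pGL2(pGL2BRI1) and pSCR(pSCRBRI1), overlapped from neighbour to neighbour between 34.1 and 47.3 CPM, above pBRN2, 35S and pSHR.

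ESB1 could not be measured in this table. It had 0 to 6 counts per library, 55 over all 48 libraries, and 18 libraries were at 0. Its entry (chromosome 2, 12300259 to 12302358, minus strand, TAIR10) shares 1459 of its 1731 exon bases, 84.3%, with AT2G28671, an entry on the plus strand at 12300203 to 12302036. That entry held 2076 counts over all libraries, from 0 to 147 per library. It averaged 3.83 ± 2.4 CPM in pSCR and 0.363 ± 0.11 CPM in 35S at 0 h. The library kit does not mark strand, so reads of these genes cannot be told apart over the shared bases, and no direction is drawn for ESB1.

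The likeness of patterns was measured as Pearson's r over the 24 group means, which share libraries within lines. Among the 7 members other than RBOHF r ran from 0.945 to 0.999 between pairs. RBOHF had r of 0.454 with CASP5 to 0.647 with SGN3. Of the 20986 other genes tested, 7 had r above 0.99 with the mean standardised profile of the 4 CASP genes, 157 had r above 0.95, and the median was -0.05. The 10 nearest were AT4G13580 (r = 0.997), AT1G30750, UCC1, AT1G71740, AT5G23920, AT2G39430, AT5G42655, AT3G55230, AT4G02090 and AT1G61590 (r = 0.989). RefSeq describes 4 of them, AT4G13580, AT2G39430, AT5G42655 and AT3G55230, as dirigent-like proteins, the class to which ESB1 belongs. AT3G55230 stood at 1779 ± 491 CPM in pSCR and 251 ± 25.1 CPM in 35S at 0 h, and AT4G13580 at 1074 ± 140 CPM in pSCR and 161 ± 15.6 CPM in 35S. UCC1, a uclacyanin (a copper-binding wall protein), stood at 858 ± 70.3 CPM in pSCR and 116 ± 2.1 CPM in 35S. AT5G42655 stood at 46.8 ± 7.8 CPM in pSCR and 6.86 ± 0.26 CPM in 35S. The gene nearest to PER64 was AT3G55230 (r = 0.999) and that nearest to MYB36 was AT4G21340, annotated in RefSeq as a basic helix-loop-helix factor (r = 0.995). The gene nearest to SGN3 was the ammonium transporter gene AMT1;2 (r = 0.9945) and that nearest to RBOHF was ILL2, an IAA-amino acid hydrolase gene (r = 0.971).

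The 21 other genes of strip formation include dirigent-like proteins, uclacyanins, peroxidases, laccase LAC3, and regulators. In pSCR 15 were higher and 3 lower than in 35S at 0 h, with a median log2 change of 2.60, against -0.05 over all genes tested. Of all genes, 12.4% were higher and 22.0% lower there, so 3 of 21 lower is under the share of all genes. LAC3, a laccase, stood at 664 ± 109 CPM in pSCR and 65.4 ± 4.9 CPM in 35S, a change of 3.35 ± 0.93 (adjusted p = 0.00562). The 3 that were lower were AT2G16385, at 0.343 ± 0.29 CPM in pSCR and 13.4 ± 1.9 CPM in 35S, AT5G50150, at 1.93 ± 0.18 CPM in pSCR and 23.0 ± 3.3 CPM in 35S, and AT4G34600, at 10.5 ± 4.6 CPM in pSCR and 115 ± 18.3 CPM in 35S. AT5G50150 was highest in the stele line, at 52.3 ± 8.5 CPM in pSHR. AT4G34600 stood at 122 ± 16.3 CPM in pSHR, with libraries that overlapped those of 35S. In pGL2, 3 of the 21 were higher and 16 lower than in 35S, where 23.0% of all genes were higher and 25.9% lower. In pSHR, 0 were higher and 7 lower, where 18.9% of all genes were lower, which became 1 and 14 without the 3 libraries that stood apart. In pBRN2, 0 were higher and 4 lower, a share under the 22.9% of all genes that were lower, which became 0 and 14 without the 3. UCC2, another uclacyanin gene, was among the 4, at 627 ± 119 CPM in pBRN2 and 1206 ± 81.4 CPM in 35S, a change of -0.95 ± 0.24 (adjusted p = 0.00210).

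The CASP family has CASP-like relatives outside the strip, of which 4 were read, those whose listed name matched the RefSeq name of their locus code. CASPL1D2 shared the endodermal pattern, at 1491 ± 643 CPM in pSCR and 86.0 ± 0.89 CPM in 35S, a change of 4.12 ± 1.03 (adjusted p = 0.00240). CASPL4D1 had the opposite one, at 16.2 ± 6.1 CPM in pSCR and 312 ± 6.7 CPM in 35S (-4.27 ± 0.32, adjusted p = 7.33e-12), and 2001 ± 201 CPM in pGL2 (2.68 ± 0.30 against 35S, adjusted p = 2.01e-08). CASPL1D1 and CASPL2C1 were also lower in pSCR and higher in pGL2 than in 35S. CASPL1D1 stood at 109 ± 11.5 CPM in pSCR, 906 ± 47.4 CPM in pGL2 and 240 ± 2.4 CPM in 35S.

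BL did not move any member past the threshold in any line with all libraries. Each comparison set 3 or 8 h against the same 0 h libraries of its line, so the changes at 3 and 8 h are not independent. No untreated libraries of 3 or 8 h were analysed here, so BL cannot be told apart from elapsed time and handling. The lowest adjusted p of edgeR was 0.294, for CASP5 in pGL2 at 8 h, and DESeq2 called no member either. At an unadjusted p under 0.05 in edgeR with all libraries, the calls were CASP5 in pBRN2 at 3 h (1.84 ± 0.81), where 12.7% of all genes were called by that rule, and RBOHF in pSHR at 8 h (0.56 ± 0.26), where 3.33% were. Without the 3 libraries that stood apart, the SE of the 7 members other than RBOHF was 0.251 to 0.604, against 0.640 to 1.12 with all libraries. More comparisons of these 7 had an unadjusted p under 0.05 in that refit, CASP5 in most of its 16. The share of all genes that changed was itself small. It was 0.0% at 3 h and 0.0% at 8 h in pSCR(pSCRBRI1), where 925 and 528 genes had an unadjusted p under 0.05 and DESeq2 called 19 and 8. It was 0.224% and 0.11% in the libraries labelled pGL2(pSCRBRI1), and 0.0429% and 0.0667% in pSCR. In pGL2(pGL2BRI1) it was 2.72% at 3 h and 1.39% at 8 h, in pBRN2 0.915% and 1.12%, in pGL2 0.981% and 3.87%, in pSHR 0.0191% and 0.0191%, and in 35S 0.31% and 0.429%. BEE1, a brassinosteroid-induced transcription factor used as a check of the treatment, rose at 8 h in pBRN2, pGL2, pGL2(pGL2BRI1) and 35S. In pSCR BEE1 stood at 2.35, 2.63 and 3.68 CPM at 0, 3 and 8 h and did not pass. Nor did it pass at 3 or 8 h in pSHR, pSCR(pSCRBRI1) or the libraries labelled pGL2(pSCRBRI1). DWF4, CPD and BAS1 were read for the same check. Of these only DWF4 passed, and only in pGL2 at 3 h, where it fell by edgeR (-2.44 ± 0.52, adjusted p = 0.0117).

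**Figure D3:**
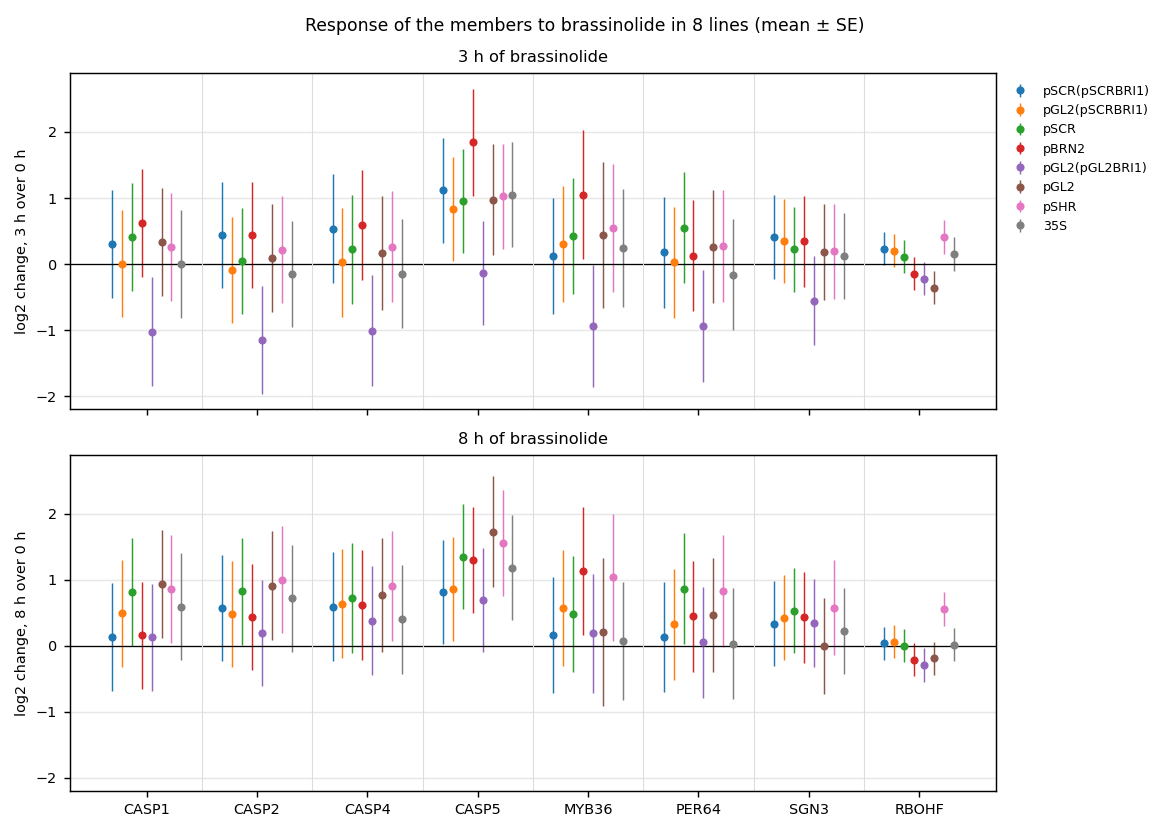
Log2 change of each tested member after 3 h (top) and 8 h (bottom) of BL in each of the 8 lines, as mean ± SE of the fit with all libraries. CASP5 reaches 1.84 in pBRN2 at 3 h and 1.73 in pGL2 at 8 h, and no point passes the test.

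The values of CASP5 lay higher after BL than before it in most lines. In pSCR, CASP5 stood at 396 and 594 CPM at 0 h, 881 and 1039 CPM at 3 h, and 1040 and 1477 CPM at 8 h. In pBRN2 it stood at 18.3 and 21.2 CPM at 0 h, 54.0 and 87.6 CPM at 3 h, and 52.9 and 44.3 CPM at 8 h. In pSHR it stood at 15.8 and 12.1 CPM at 0 h, 28.1 and 28.8 CPM at 3 h, and 47.4 and 34.8 CPM at 8 h. In these 3 lines the libraries at 3 h and at 8 h were all above those at 0 h. In pGL2 it stood at 2.82 and 5.21 CPM at 0 h, 6.87 and 8.85 CPM at 3 h, and 9.65 and 16.9 CPM at 8 h. In pSCR(pSCRBRI1) it stood at 399 and 365 CPM at 0 h, 750.2 and 907 CPM at 3 h, and 701 and 645 CPM at 8 h. In the libraries labelled pGL2(pSCRBRI1) it stood at 294 and 235 CPM at 0 h, 506 and 437 CPM at 3 h, and 547 and 415 CPM at 8 h. These 3 lines had no overlap between 0 h and the later times either. The 2 libraries of pGL2(pGL2BRI1) differed too widely at every time to be ordered, and in 35S it stood at 57.7 and 57.5 CPM at 0 h, 70.6 and 168.5 CPM at 3 h, and 189.5 and 72.0 CPM at 8 h. In 35S the 5 green tissue markers summed to 429.5 and 101 CPM at 3 h and 51.2 and 561 CPM at 8 h, so the library with less CASP5 was the one with more of these markers at both times, and their part in the result was not tested. The log2 change of CASP5 was above 0 in 7 of 8 lines at 3 h (8 of 8 without the 3 libraries that stood apart) and in 8 of 8 at 8 h. Its SE was 0.79 to 0.84 with all libraries, and none of the 16 comparisons passed.

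Without the 3 libraries that stood apart, the SE of CASP5 was 0.370 to 0.554 and 2 of its 16 comparisons passed. CASP5 rose in pBRN2 at 3 h by 1.84 ± 0.38 (adjusted p = 0.0123), where 1.19% of all genes changed, and in pGL2 at 8 h by 1.73 ± 0.40 (adjusted p = 0.0133), where 3.97% changed. CASP1 rose in pGL2 at 8 h by 0.94 ± 0.26 (adjusted p = 0.0351). CASP1 stood there at 47.8 and 81.1 CPM at 8 h, against 28.4 and 39.1 CPM at 0 h.

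The share of CASP5 within its family was looked at after its values were seen, and is given as a description with no test. CASP5 made up 5.58 to 9.74% of the summed CPM of CASP1, CASP2, CASP4 and CASP5 over the 16 libraries at 0 h (median 6.71%), 10.05 to 18.3% at 3 h (median 11.2%) and 7.04 to 13.9% at 8 h (median 10.98%). At 3 h each of the 16 libraries lay above the highest library at 0 h. In pSCR the share was 8.13 and 9.74% at 0 h, 13.5 and 13.5% at 3 h, and 11.2 and 13.9% at 8 h. In pBRN2 it was 6.71 and 5.96% at 0 h, 13.8 and 13.8% at 3 h, and 13.3 and 10.98% at 8 h. Within their own line, both libraries were above both 0 h libraries in 8 of 8 lines at 3 h and in 7 of 8 at 8 h, the exception being 35S. Per 100 CPM of CASP1, CASP5 had a median of 10.5 CPM at 0 h, 19.4 at 3 h and 19.4 at 8 h. The share of CASP1 ran from 54.4 to 70.03% at 0 h, 50.96 to 64.8% at 3 h and 51.7 to 59.95% at 8 h, with medians of 60.9, 58.9 and 57.6%. The share is of CPM, not of CPM per length. It does not depend on the scaling of the libraries, and it stood at 7.53 and 5.58% at 0 h in the pair of pGL2(pGL2BRI1) libraries that differed most in level.

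**Figure D4:**
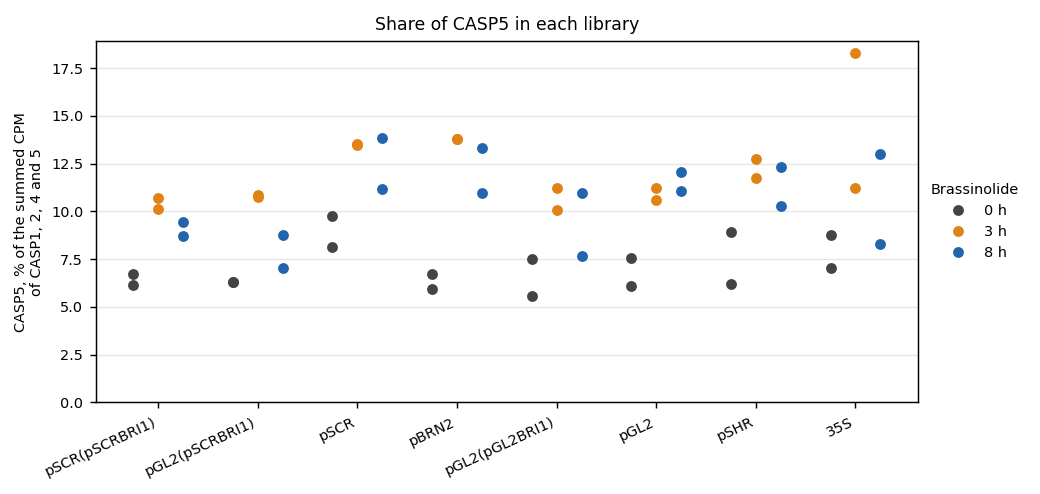
CASP5 as a percent of the summed CPM of CASP1, CASP2, CASP4 and CASP5 in each library, by line and hours of BL, with 2 points per group. The 16 points at 3 h lie between 10.05 and 18.3%, above all 16 points at 0 h, which reach 9.74%.

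The log2 changes of the other members after BL ran from -1.15, for CASP2 in pGL2(pGL2BRI1) at 3 h, to 1.13, for MYB36. CASP1 in pSCR averaged 3060 ± 359 CPM at 0 h, 4066 ± 544 CPM at 3 h and 5395 ± 501 CPM at 8 h. CASP2 in pSCR averaged 1309 ± 335, 1356 ± 133 and 2317 ± 87.8 CPM at these times. For both genes the 8 h libraries of pSCR were above those at 0 h without overlap, and no change passed. CASP4 in pSCR averaged 619 ± 35.0, 722 ± 48.9 and 1023 ± 47.3 CPM, PER64 834 ± 275, 1219 ± 70.4 and 1520 ± 90.7 CPM, and MYB36 110.0 ± 12.5, 148 ± 16.8 and 154 ± 22.1 CPM. SGN3 in pSCR averaged 95.7 ± 28.5, 112 ± 20.1 and 138.5 ± 34.9 CPM, with overlapping libraries at the 3 times. RBOHF in pSCR averaged 43.3 ± 3.2, 46.8 ± 5.9 and 43.3 ± 0.34 CPM. Over the 7 members other than RBOHF, 45 of 56 log2 changes were above 0 at 3 h and 55 of 56 at 8 h, counts that share the 0 h libraries. Without the 3 libraries that stood apart these were 52 of 56 and 55 of 56, and the 7 changes in pGL2(pGL2BRI1) at 3 h, -1.15 to -0.14 with all libraries, turned to 0.04 to 0.82. Over all genes tested, the median log2 change in the 16 comparisons ran from -0.035 to 0.043 with all libraries. The 7 members also vary together, with r of 0.945 to 0.999 between pairs, so the 56 values are not independent and the counts are no test. In pSCR at 8 h these 7 had log2 changes of 0.48 to 1.35, with a highest SE of 0.88. None of the 21 partner genes passed in any of the 16 comparisons, and of the 4 CASP-like genes CASPL4D1 fell in pBRN2 at 8 h, to 420 ± 114 CPM, against 1308 ± 232 CPM at 0 h (-1.64 ± 0.29, adjusted p = 0.00174).

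The complemented lines ask whether plants with BRI1 in 1 tissue alone carry the members at the level of Col-0. BRI1 mRNA stood at 19.9 ± 3.1 CPM in pSCR(pSCRBRI1) and 17.3 ± 12.4 CPM in pSCR at 0 h, and transgene and mutant transcript are counted together. CASP1 stood at 3919 and 3930 CPM in pSCR(pSCRBRI1), against 2806 and 3314 CPM in pSCR, and CASP5 at 399 and 365 CPM, against 396 and 594 CPM in pSCR. With all libraries no member passed at 0, 3 or 8 h between these lines, where 2.99%, 2.01% and 2.02% of all genes changed. Nor did any member have an unadjusted p under 0.05 in edgeR, where 3353, 2428 and 2382 of the 20995 genes tested did. The log2 changes of the 7 members other than RBOHF ran from -0.47 to 0.37 at 0 h, from -0.33 to 0.26 at 3 h and from -0.90 to -0.29 at 8 h, and those of RBOHF were -0.17, -0.05 and -0.13, each with an SE of 0.25. For the libraries labelled pGL2(pSCRBRI1) against pSCR no member passed with all libraries either, where 0.972%, 0.529% and 0.8% of all genes changed. None had an unadjusted p under 0.05 in edgeR in that fit, where 2397, 1730 and 1750 genes did. The 7 members ran from -0.90 to 0.09, from -1.03 to 0.01 and from -1.39 to 0.04. In both sets of comparisons the SE of the 7 was 0.64 to 0.88 with all libraries. Without the 3 libraries that stood apart it was 0.25 to 0.37, and the lowest change at 8 h in the labelled libraries stayed at -1.39. The unadjusted p-values of that refit are not given here. A missed threshold here does not show that the levels were alike.

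In pGL2(pGL2BRI1) the calls depended on single libraries. CASP1 stood at 56.8 and 998 CPM in pGL2(pGL2BRI1) at 0 h, against 28.4 and 39.1 CPM in pGL2. PER64 stood at 15.1 and 254 CPM in pGL2(pGL2BRI1), against 8.22 and 14.75 in pGL2. MYB36 stood at 0.960 and 32.0 CPM in pGL2(pGL2BRI1), against 1.03 and 1.84 in pGL2. In each case 1 of the pair was near pGL2 and the other far above it. With all libraries, the 4 CASP genes, MYB36 and PER64 were higher at 0 h, by 3.53 to 4.02, where 6.64% of all genes were higher. All 4 CASP genes were higher at 3 h, by 2.53 to 2.78, where 7.81% were higher, and CASP1, CASP2, CASP4 and PER64 were higher at 8 h, by 3.14 to 3.40, where 3.3% were higher. Without the library that stood apart at each time, no member passed at 0, 3 or 8 h, where 4.54%, 7.95% and 3.39% of all genes changed, and the log2 changes turned to -0.57 for MYB36 and -0.75 for SGN3 at 0 h, and to -0.58 for MYB36 and -0.11 for SGN3 at 3 h. No member passed either when 1 of the pGL2 libraries was left out, replicate 1 or replicate 2, at 0, 3 or 8 h, with median log2 changes of 2.41 to 4.09. The 12, 3 and 6 partner genes that were higher at these times became 2, 1 and 1. RBOHF differed by -0.11, 0.03 and -0.21 at the 3 times with all libraries, each with an SE of 0.25.

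A note in the labels, that reads had 51 bases before the last was trimmed, splits these libraries in the same way. It is on 21 of the 48 libraries, among them the pGL2(pGL2BRI1) library with the low levels at each time and 1 pGL2 library at each time. Compared within the libraries that carry the note, the 7 members other than RBOHF in pGL2(pGL2BRI1) were 0.422 to 1.46 times their level in pGL2 at 0 h, 0.999 to 1.59 times at 3 h and 0.826 to 1.92 times at 8 h. Within the libraries that lack it, they were 11.2 to 39.4, 3.33 to 13.5 and 8.67 to 29.4 times their level in pGL2. These are ratios of single libraries with no test. RBOHF was 0.822, 0.925 and 0.762 times its pGL2 level with the note and 1.04, 1.13 and 0.960 times without it. Within the noted libraries the CASP genes stood at 0.955 to 1.46 times their pGL2 level at 0 h, 1.34 to 1.59 times at 3 h and 1.49 to 1.92 times at 8 h. In the pGL2(pGL2BRI1) libraries that stood apart, the endodermis marker sum was 20.4, 8.40 and 18.3 percent of that in pSCR at 0, 3 and 8 h, and the non-hair epidermis markers summed to 140, 234 and 209 CPM, against 201, 268 and 273 CPM in the noted libraries. The part of endodermal mRNA in the result was not tested. The note is on all pSCR libraries and no 35S, pBRN2 or pSHR library, so note and line cannot be told apart in those comparisons. In pSCR(pSCRBRI1), 1 library of each pair carries the note. At 0, 3 and 8 h CASP1 stood at 3919, 4479 and 4238 CPM with it and 3930, 5227 and 4372 CPM without it. SGN3 stood at 55.5, 88.9 and 83.9 CPM with it and 82.3, 94.4 and 89.6 CPM without it. CASP5 went the other way at 0 and 8 h, at 399 and 701 CPM with it and 365 and 645 CPM without it. The endodermis markers summed to 1612, 1510 and 1304 CPM with it and 2192, 1987 and 1733 CPM without it. The part of the note in these differences was not tested.

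**Figure D5:**
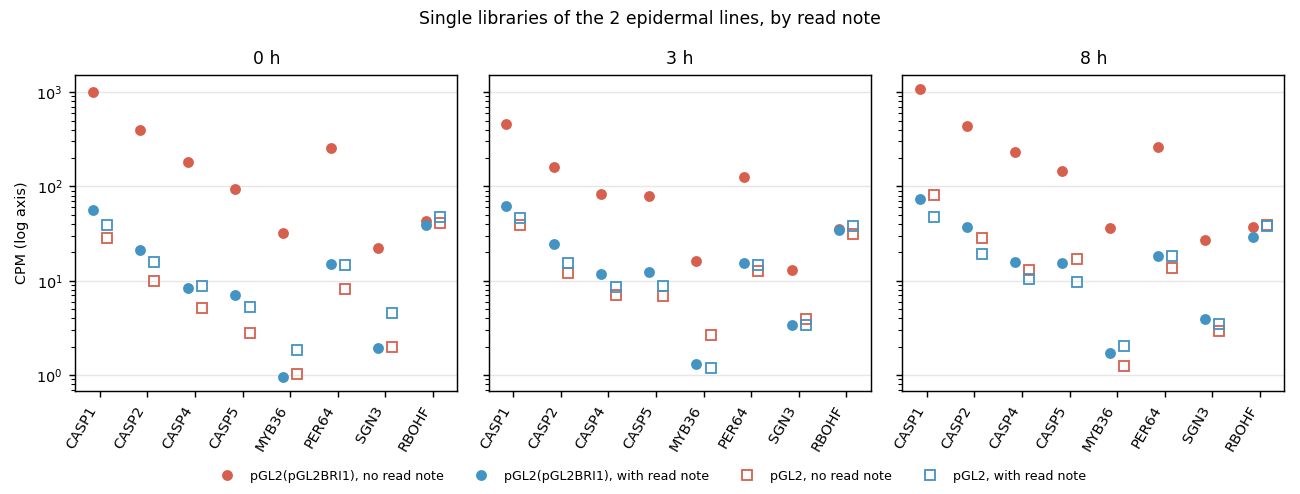
Level of each tested member in the single libraries of pGL2(pGL2BRI1) and pGL2 at 0, 3 and 8 h, in CPM on a log axis. Filled circles are pGL2(pGL2BRI1) and open squares are pGL2. Blue marks libraries with the read note and red those without it. The pGL2(pGL2BRI1) library without the note has CASP1 at 998, 459 and 1082 CPM, while the other 3 libraries at each time stay at or below 81.1 CPM.

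The responses to BL were also compared between the complemented lines and their Col-0 lines, as the difference of their log2 changes. With all libraries no member passed at 3 or 8 h or had an unadjusted p under 0.05 in edgeR. For pSCR(pSCRBRI1) minus pSCR 0.0% of all genes passed at each time, with 360 and 520 at an unadjusted p under 0.05, and the 7 members other than RBOHF ran from -0.37 to 0.39 at 3 h and from -0.74 to -0.13 at 8 h. For the libraries labelled pGL2(pSCRBRI1) minus pSCR 0.00476% and 0.0143% passed, and the 7 members ran from -0.52 to 0.12 and from -0.54 to 0.09. For pGL2(pGL2BRI1) minus pGL2 0.0286% and 0.00953% passed, and the 7 members ran from -1.38 to -0.74 and from -1.04 to 0.35. Without the 3 libraries that stood apart these ranges were -0.22 to 0.63 and -0.60 to 1.04, so that the direction at 3 h turned for some members. RBOHF had differences of -0.10 to 0.14 in all 6, each with an SE of 0.35. Of the 4 CASP-like genes, CASPL4D1 differed in level between pGL2(pGL2BRI1) and pGL2. It was lower at 0 h, at 890 ± 82.3 CPM in pGL2(pGL2BRI1) and 2001 ± 201 CPM in pGL2 (-1.17 ± 0.28, adjusted p = 0.00777), and lower at 3 and 8 h too. Without the libraries that stood apart, 1, 0 and 0 of the 4 genes were lower at 0, 3 and 8 h.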

How the data were processed

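Polysome-bound mRNA of 48 libraries was sequenced as single-end reads of 50 bases with a kit that does not mark strand, per the labels' protocols. Per the submitters' processing notes and design text, alignment to TAIR10 used TopHat2 2.0.9, counting used HTSeq 0.5.3p3, quality checks used FastQC 0.10.1 and normalisation used DESeq2 1.2.8. What the authors deposited is a table of raw whole-number counts for 33715 entries, and these counts were tested. It held 0 columns of other samples.

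Low counts were removed with filterByExpr of edgeR 4.0.16 (R 4.3.3), which left 20995 entries. Counts were scaled with TMM, and the quasi-likelihood test was run with robust estimation, 1 mean per group, all 48 libraries and Benjamini-Hochberg adjustment within each of 37 comparisons: 6 between lines at 0 h, 16 of BL, 9 of complemented lines and 6 of response differences. The fit was tested on simulated data. DESeq2 1.42.0 was an alternative. Over all tested entries the log2 changes had a median of -0.14 for pBRN2 against 35S and -0.12 for pGL2 against 35S.

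The members and all lists were chosen with earlier results of these data known. Of the 10 members, 1 is not reported here, and it is left out of every count, sum and profile of the members. The other members were named everywhere. List genes named were up to 4 per comparison, those with the largest change that passed, if the higher group averaged 8 CPM or more. Further genes named were the 10 nearest in pattern to the CASP profile and the nearest to a member. Of the lists, PER3 and 7 CASP-like genes were dropped because their symbol and locus code did not match in RefSeq, and genes with no RefSeq symbol are given by locus code. Other genes of the strip (21), CASP-like genes (4), cell type markers, BEE1, DWF4, CPD, BAS1 and BRI1 were read. Promoters came from RefSeq TAIR10.1, whose gene spans overlapped the deposited ones for 26808 of 26815 loci. No protein sequences were used here. Alternatives were other scalings, no filter, DESeq2, only the groups compared, the read note as a term, a replicate block, leaving out each library, and, chosen after seeing the data, a replicate block within each line, leaving out the 3 libraries that stood apart or the 6 labelled pGL2(pSCRBRI1).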

Additional observations from a re-analysis of the deposited data

How the results depend on the processing

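Apart from leaving out single libraries, which is given further on, members that passed, out of 8 tested, changed with the setting in these comparisons only. In pBRN2 against 35S the 1 call (RBOHF) became 6 on library totals, 2 with DESeq2, 8 with only the groups compared, 2 with the read note as a term, 7 without the 3 pGL2(pGL2BRI1) libraries that stood apart and 0 without the 6 labelled pGL2(pSCRBRI1). In pSHR against 35S the 4 became 2 on library totals, 2 with no filter, 8 with DESeq2, 8 with only the groups compared, 7 with the read note, 8 without the 3 and 2 without the 6. For pGL2(pGL2BRI1) against pGL2 the 6 at 0 h became 0 with only the groups compared and 0 without the 3. The 4 at 3 h became 1 on library totals, 0 with no filter, 0 with only the groups compared, 1 with the read note, 0 without the 3 and 1 without the 6. The 4 at 8 h became 2, 0, 0 and 0 on library totals, with no filter, with only the groups compared and without the 3, and 7 and 0 with DESeq2 and without the 6. After BL the 0 calls became 1 in pBRN2 at 3 h without the 3, 1 and 2 in pGL2 at 8 h with only the groups compared and without the 3, and 1 and 2 in pSHR at 3 and 8 h with only the groups compared. The cause was not tested. MYB36 in pGL2(pGL2BRI1) against pGL2 at 0 h turned to -0.57 without the 3 and ranged from -0.57 (without pGL2(pGL2BRI1) 0 h replicate 2) to 4.49 (without replicate 1) when 1 library was left out. Leaving out each library in turn gave 3 to 7 members in pSCR against 35S, 0 to 1 in pBRN2, 5 to 8 in pGL2, 1 to 2 in pSHR, and 0 to 7, 0 to 5 and 0 to 7 in pGL2(pGL2BRI1) against pGL2 at 0, 3 and 8 h. Of the 10 genes nearest in pattern, 7 stayed among the 10 over the 15 Col-0 group means.

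The labels tie same-numbered libraries to nothing but a number. The correlations of their deviations ran from -0.574 to 0.629, and within a line they were over 0.3 at both times in pSCR, pBRN2, pSCR(pSCRBRI1) and the libraries labelled pGL2(pSCRBRI1). With a replicate block every count of members stayed within 1.5 times, and PER64 missed the threshold in pSHR against 35S (-2.38, adjusted p = 0.0502, edgeR) and in pGL2(pGL2BRI1) against pGL2 at 8 h (3.05, adjusted p = 0.0622, edgeR). With a replicate block within each line, added after seeing the data, the 4 calls in pSHR against 35S became 2, those of pGL2(pGL2BRI1) against pGL2 became 3 at 0 h, 5 at 3 h and 0 at 8 h, and the 0 calls after BL stayed 0 in all 16 comparisons. DESeq2 size factors in edgeR left all 37 counts alike. On library totals 21 of 64 member levels moved by over 1 SD. Summing several entries of a locus was not run, since each member has 1. The 2 libraries per group limit precision, and ESB1, with at most 6 counts, could not be tested.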
